A study of Rattus norvegicus with 24 samples.

Results

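The 47 genes described here carry names of motile cilia and flagella components, and were taken from a normalised count table of rat hippocampus by their symbols alone: every gene named Dnah, Dnai, Cfap, Rsph or Tekt followed by a number. They made up 47 of the 20318 features, with 24 Cfap, 11 Dnah, 2 Dnai, 5 Rsph and 5 Tekt genes. Most encode parts of the axoneme, the microtubule core of the cilium, some are best known from sperm flagella, and for 5 no axonemal position was listed. All 47 had a mean of at least 10 normalised counts over the libraries, which was the condition for testing (16119 genes met it), and none was at 0 in any library.

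Hippocampal RNA of female rats was sequenced in 24 libraries of 4 groups, with rats 6 months old at the start of the experiment. In the SHAM group (n = 7) the ovaries were not removed and vehicle was given for 7 weeks. In the OVX group (n = 7) ovariectomy was followed by 7 weeks of vehicle. In the Prevention group (OVX_E2_Prevention, n = 5) ovariectomy was followed by 5 weeks of estradiol (E2). In the Treatment group (OVX_E2_Treatment, n = 5, with replicate numbers 1, 2, 5, 6 and 7) ovariectomy was followed by 3 weeks of vehicle and then 2 weeks of E2. The vehicle groups were thus treated for longer than either E2 group. The labels name no strain, and nothing in them says that libraries of a group came from separate animals, so p-values measure the spread between these libraries.

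Motile cilia beat because dynein motors slide the outer doublet microtubules of the axoneme against one another. Outer and inner dynein arms supply the force, radial spokes and the central apparatus regulate it, and tektins and other proteins inside the doublets stabilise the microtubules. In the brain such cilia line the ventricles on multiciliated ependymal cells, where they move cerebrospinal fluid, and epithelial cells of the choroid plexus also carry tufts of cilia and express many axonemal genes. Both tissues adjoin the hippocampus without belonging to it. Ttr, the thyroxine carrier transthyretin, marks choroid plexus epithelium, and Tmem212 marks ependyma.

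In units of 1e6, column totals ran from 35.4 to 38.8 normalised counts per library, and the reads estimated from the smallest steps of the values from 26.8 to 53.2. In 7 libraries (all Prevention libraries and Treatment replicates 1 and 2) the feature LOC257642 stood above its level in the other 17, and since this split contains all of Prevention and none of SHAM or OVX, it cannot be told apart from the treatment in comparisons of Prevention with those groups. In 5 libraries (Prevention 1 and 4, Treatment 6, OVX 2 and SHAM 5) Tcf7l2, a transcription factor of thalamic neurons, lay between 1573 and 3357 normalised counts, against 773 or less in the others. Summed over the 17 choroid plexus markers in the table, levels ran from 8993 to 214413 in SHAM, 9591 to 115608 in OVX, 9327 to 115332 in Prevention and 7655 to 114332 in Treatment. The 14 ependymal markers summed to 1962 to 2802, 1927 to 2663, 2042 to 2386 and 2062 to 2809 in the same order. Of these ependymal markers, Sntn was at 0 in some libraries of every group.

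Promoter sequences are shown first for the members that shared the complete form of a known ciliary motif. RFX transcription factors, which drive ciliary genes, bind the X-box, an inverted repeat of 2 arms. RefSeq promoters (assembly GRCr8, 250 bases before to 50 after the start) were matched for 40 of the 47 genes. Cfap157, Cfap52, Cfap53, Cfap73, Dnah3, Rsph1 and Tekt5 had none in the table used. The loose form with both arms, GTNNCC and GNAAC with 3 free bases between them, searched on both strands, occurred in 5 of the 40 (12.5%), against 2.10% of 27457 promoters of the same length. 4 of them are printed from 90 bases before the start base to 29 after it, 5′ to 3′ on the strand of the gene, with the motif in capitals (here as its reverse complement, since each match read on the opposite strand).
Cfap44, chr11:69789876-69789995, minus strand: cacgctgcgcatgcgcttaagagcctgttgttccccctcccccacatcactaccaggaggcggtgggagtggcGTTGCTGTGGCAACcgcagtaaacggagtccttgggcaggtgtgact
Cfap45, chr13:87521741-87521860, plus strand: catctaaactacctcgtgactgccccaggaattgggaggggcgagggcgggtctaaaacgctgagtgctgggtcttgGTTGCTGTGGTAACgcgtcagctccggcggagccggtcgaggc
Dnah12, chr16:1944662-1944781, plus strand: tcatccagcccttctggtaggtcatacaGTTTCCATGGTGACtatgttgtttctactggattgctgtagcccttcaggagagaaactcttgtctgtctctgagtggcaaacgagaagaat
Tekt4, chr10:14992194-14992313, plus strand: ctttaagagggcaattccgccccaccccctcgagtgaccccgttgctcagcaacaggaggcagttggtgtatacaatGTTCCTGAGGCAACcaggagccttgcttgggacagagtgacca

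The match began 62 bases before the start in Dnah12, 17 in Cfap44 and 13 in Cfap45 and Tekt4. On the gene strand alone the count was 0 of 40, against 1.25% of all promoters, so the count depends on searching both strands. The single arm GTTGCC, which lies inside the longer match printed for Cfap44 and Tekt4, occurred on either strand in 13 of 40 (32.5%), against 12.2% of all promoters. On the gene strand alone it occurred in 5 of 40 (12.5%), against 6.60%. A forkhead motif, TGTTTAC, of the factor class that includes the ciliogenesis regulator FOXJ1, occurred on either strand in 2 of 40 (5%), against 3.76%. Among the 26 promoters of genes that followed Ttr or Tmem212 in the tests given further on, 8 held the single arm on either strand, and among the other 14 promoters 5 did.

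Levels of most of these genes varied widely between libraries, and SHAM, OVX and Treatment each held high and low libraries. In Prevention the spread was narrower: the median deviation of the genes from their own means ran from -0.24 to 0.11 on the log2 scale. The ratio of the highest to the lowest library had a median of 2.85 over the 47 genes, from 1.27 in Cfap36 to 9.72 in Dnah3. A single library, SHAM 7, was the highest of all 24 for 21 genes, Treatment 6 for 8 and OVX 6 for 7. SHAM 7 and Treatment 6 were each among the top 3 libraries for 34 of the 47 genes, and OVX 6 for 24. At the other end, OVX 1 was the lowest library for 11 genes, SHAM 2 for 8 and OVX 5 for 6. SHAM and OVX thus each held both a highest and a lowest library.

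Ttr stood at 136652 normalised counts in SHAM 7, at 71606 in Treatment 6 and at 41398 in OVX 6, the libraries with the highest cilia genes. In OVX 2 Ttr was higher (73531) than in Treatment 6, while the median gene of OVX 2 was only 0.08 above its own mean on the log2 scale, against 0.59 in Treatment 6. Treatment 7 and SHAM 4 had little Ttr (1019 and 1028), and 40 and 37 of the 47 genes were above their own median there. Treatment 5 and OVX 4 had more Ttr (12498 and 10032), and only 9 and 11 genes were above their median. Tmem212 separated these pairs the other way: it was 171 and 125 in Treatment 7 and SHAM 4, and 50.9 and 72.1 in Treatment 5 and OVX 4, the 2 lowest values in the series. Other libraries departed from this: Prevention 3 held 129 of Tmem212 with 11 genes above their median, and OVX 7 held 103 with 35. Across the 24 libraries Tmem212 and Ttr themselves had a Pearson r of 0.257.

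**Figure D1:**
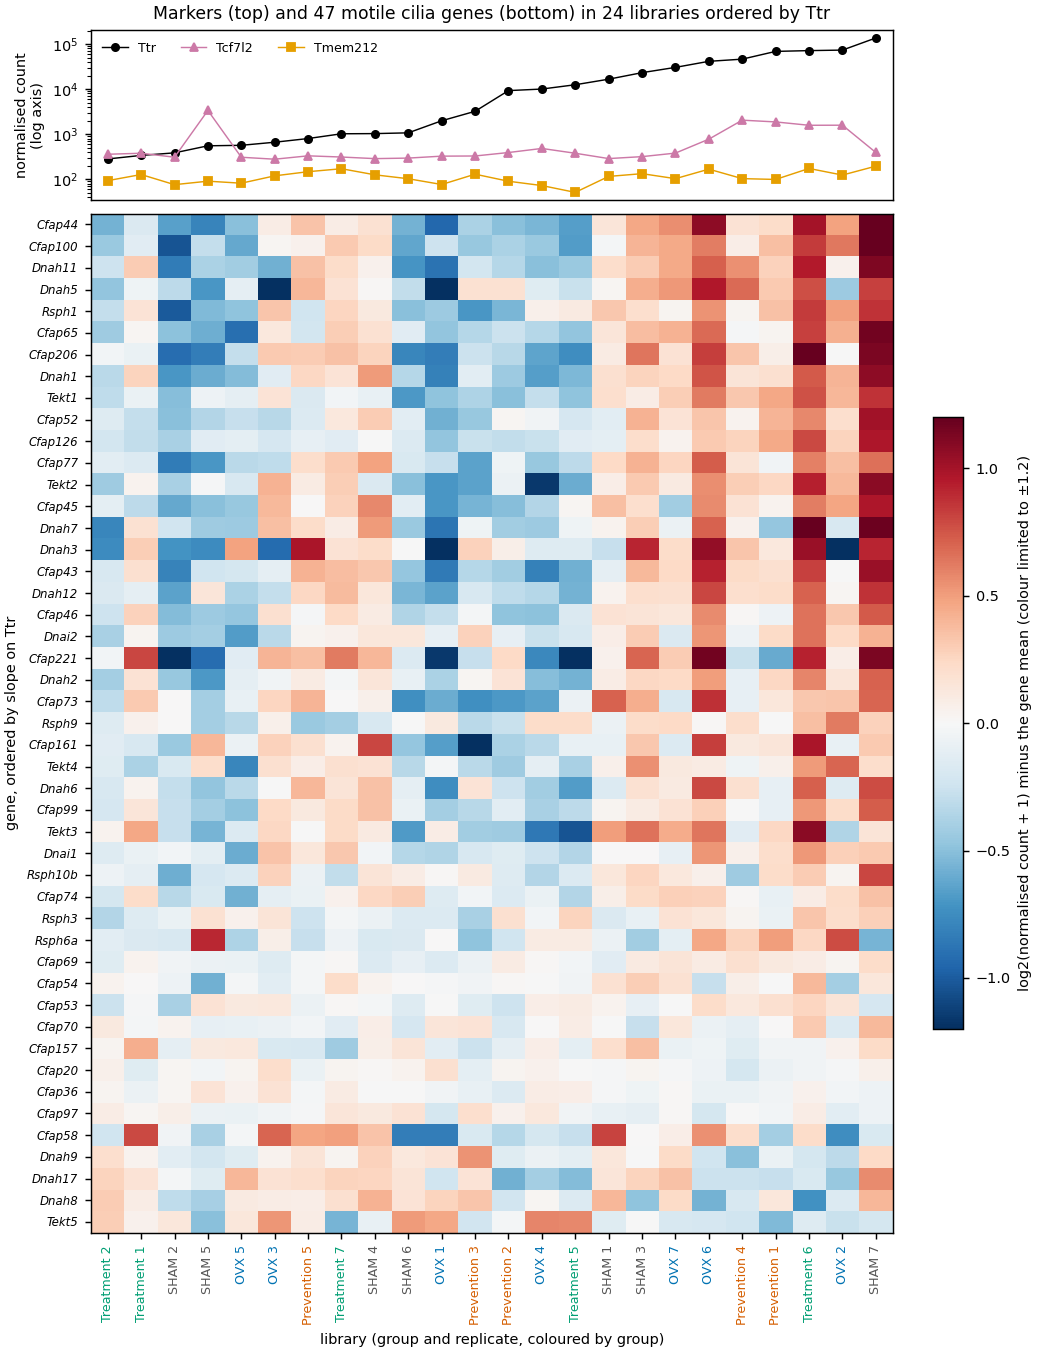
Top, normalised counts of Ttr, Tcf7l2 and Tmem212 (log axis) in the 24 libraries ordered by Ttr. Bottom, log2(normalised count + 1) of each of the 47 genes minus its mean over libraries, with rows ordered by slope on Ttr and names of libraries coloured by group: SHAM 7, Treatment 6 and OVX 6 are high in most rows, Treatment 5 and OVX 4 are low with 12498 and 10032 normalised counts of Ttr, and the lowest rows follow neither marker.

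Slopes were then fitted for every gene on log2 of a marker with the groups kept as separate means, using limma on log2(normalised count + 1) and Benjamini-Hochberg adjustment over all 16119 genes, with 0.05 as the threshold. A slope is the log2 change of a gene per doubling of the marker. On Ttr, 17 of 47 genes passed and all 17 rose with it, where 6.66% of all genes tested passed and 4.7% rose. The median slope was 0.0662 per doubling of Ttr over the 47 genes and -0.000852 over all genes. On Tmem212, 22 of 47 passed and all 22 rose, against 0.831% of all genes passing and 0.782% rising, and the median slope was 0.50 against -0.0017. The marker for ependyma, Foxj1, that had been intended for this test is not analysed here, and Tmem212 was taken in its place after values had been seen.

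With both markers in 1 fit, 16 genes rose with Ttr, where 4.58% of all genes passed and 3.5% rose. In the same fit 19 rose with Tmem212, where 0.726% of all genes passed and 0.689% rose. Of the single fits, 11 genes passed on both markers: Cfap44, Cfap45, Cfap46, Cfap65, Cfap77, Cfap100, Dnah1, Dnah11, Dnah12, Dnai2 and Tekt1. Another 6 passed on Ttr alone (Cfap52, Cfap69, Cfap126, Dnah5, Rsph1 and Rsph9), 11 on Tmem212 alone, and 19 on neither. How many of all genes fell in each of these classes was not counted. Passing on 1 marker alone does not show that the slopes on both differ, which was not tested. A library with more of a cell type and one with more RNA per such cell cannot be told apart in bulk tissue.

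**Figure D2:**
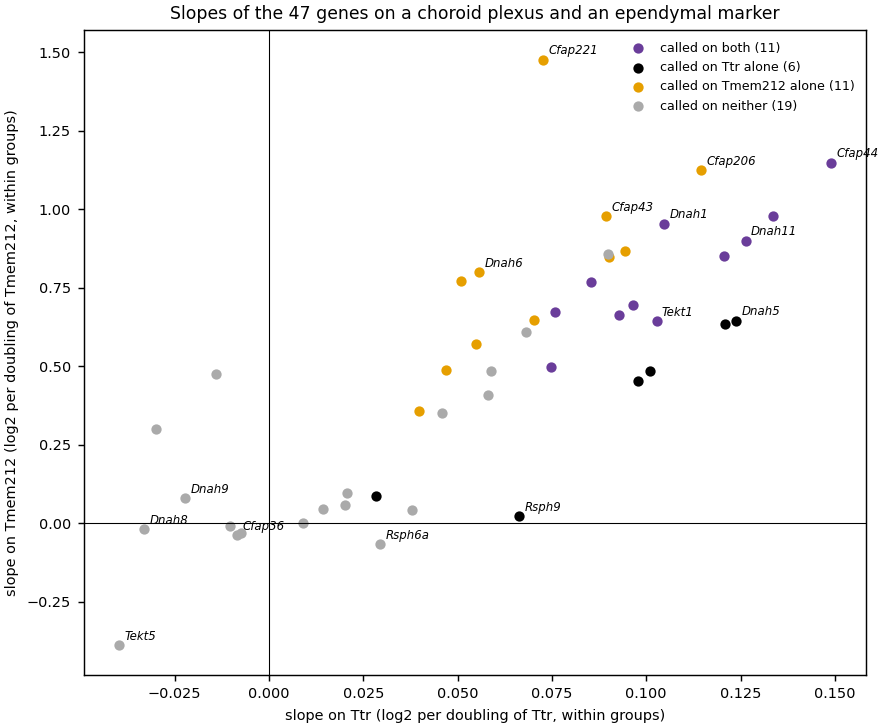
Slope of each of the 47 genes on Ttr (x axis) and on Tmem212 (y axis), both in log2 per doubling of the marker within groups and coloured by the tests passed. Of 28 genes that passed on either marker, 11 passed on both and lie to the upper right, and Tekt5 has the lowest slope on each axis.

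These counts moved with a few libraries. Without Treatment 6, 10 genes rather than 17 rose with Ttr, and without the 5 libraries rich in Tcf7l2 none passed on Ttr, although 313 of all genes did there and the slope of Cfap44 was 0.134 (adjusted p = 0.185). In the joint fit the count on Ttr was 10 without Treatment 5 and 6 without those 5 libraries, beside 486 and 289 of all genes. On Tmem212, 16 genes passed without those 5 libraries, beside 97 of all genes. With Ccdc153, another ependymal marker, in place of Tmem212 14 passed, beside 67 of all genes. Within the 7 libraries high in LOC257642 no gene passed on either marker, and within the other 17 libraries 15 passed on Ttr and 20 on Tmem212.

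Outer dynein arm heavy chains, the main force-producing motors, divided into genes that followed the markers and genes that did not. Dnah11, an outer arm motor of the proximal axoneme, ran from 154 over a median of 285 to 601 normalised counts in SHAM and from 148 over 205 to 453 in OVX. Its Prevention libraries measured 334, 216, 236, 402 and 352, and its Treatment libraries 340, 232, 202, 533 and 321. All 4 groups overlapped, and the highest value of SHAM, OVX and Treatment came from the libraries named above. Dnah11 rose with Ttr (slope 0.126, SE 0.0287, adjusted p = 0.00831) and with Tmem212 (slope 0.90, SE 0.164, adjusted p = 0.00426), though with Ccdc153 as the marker it did not pass (adjusted p = 0.0602). Dnah5, the outer arm motor most often mutated in primary ciliary dyskinesia, rose with Ttr (slope 0.124, adjusted p = 0.0177). Its slope on Tmem212 was 0.65 (SE 0.222) and did not pass (adjusted p = 0.22), though it was close to that of Dnah2 (0.648), which passed.

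Dnah9, the outer arm motor of the distal axoneme, behaved otherwise. It lay at 3433 to 4838 normalised counts in SHAM (median 4352), 3210.0 to 4686 in OVX (median 3797), at 3769, 3602, 5822, 2819 and 4460.1 in Prevention, and at 4116, 4594, 3682, 3445 and 4075 in Treatment. Its highest and lowest libraries, Prevention 3 and 4, were both in 1 group. Its slope on Ttr was -0.0222 (SE 0.0157, adjusted p = 0.42), and SHAM 7, the library with the most Ttr, held 4702. Dnah8 and Dnah17, outer arm heavy chains best known from sperm flagella, passed on neither marker, and Dnah8 was at its lowest, 81.6, in Treatment 6.

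Inner arm heavy chains, which shape the bend of the cilium, were mostly called on the ependymal marker: 5 of the 6 rose with Tmem212 (Dnah1, Dnah2, Dnah6, Dnah7 and Dnah12), and 2 of them also with Ttr (Dnah1 and Dnah12). Their Tmem212 slopes, with that of the sixth gene, lay between 0.65 and 0.95. Dnah6 had the smallest adjusted p of all 47 genes on Tmem212 (slope 0.80, SE 0.0914, adjusted p = 4.92e-05). Dnah3, the remaining inner arm gene, had a slope of similar size, 0.86, but did not pass (adjusted p = 0.221), and its counts were low, from 5.1 in OVX 1 to 49.5 in OVX 6.

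Both dynein intermediate chains, which tether the outer arm motors, rose with Tmem212. Dnai1 measured 120 to 190 in SHAM (median 149), 100 to 220 in OVX (median 142), 177, 138, 134, 159 and 168 in Prevention, and 144, 137, 119, 219 and 191 in Treatment. The highest libraries, OVX 6 and Treatment 6, were high for most of the other genes too. Its slope on Tmem212 was 0.49 (SE 0.0944, adjusted p = 0.00708). Dnai2 ran from 61.2 to 111 in SHAM (median 91.3) and from 51.8 to 121 in OVX (median 73.9), and measured 97.5, 77.5, 101, 79.9 and 85.0 in Prevention and 85.0, 63.2, 73.0, 131 and 86.5 in Treatment. It rose with Ttr (slope 0.0747, SE 0.0186, adjusted p = 0.016) and with Tmem212 (slope 0.50, SE 0.115, adjusted p = 0.0323). The Tmem212 call of Dnai2 ended when any of Prevention 2, Treatment 6, OVX 6, SHAM 2 or SHAM 7 was left out (adjusted p from 0.0509 to 0.132), and its Ttr call ended without Treatment 6 (adjusted p = 0.0776). Both ended with quantile normalisation (adjusted p = 0.0728 on Tmem212 and 0.0653 on Ttr), and the first also with no filter on low values (0.0523) and with Ccdc153 as the marker (0.131).

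Among the 4 genes of the dynein regulatory and tether complexes, 3 rose with Tmem212, and Cfap44 had the steepest Ttr slope of all 47. Cfap44, which with Cfap43 tethers the head of an inner dynein to the doublet, ran from 156 over 298 to 744 in SHAM and from 140 over 287 to 570.1 in OVX. Prevention measured 315, 189, 208, 305 and 341, and Treatment 238, 182, 170, 541 and 288. The groups overlapped throughout, and SHAM 7 was far above the other SHAM libraries. Its slopes were 0.149 on Ttr (SE 0.034, adjusted p = 0.00879) and 1.15 on Tmem212 (SE 0.172, adjusted p = 0.000613). Cfap100, a component of the regulatory complex of inner arms, passed on both markers and its partner Cfap73 on neither. Cfap43 passed on Tmem212.

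**Figure D3:**
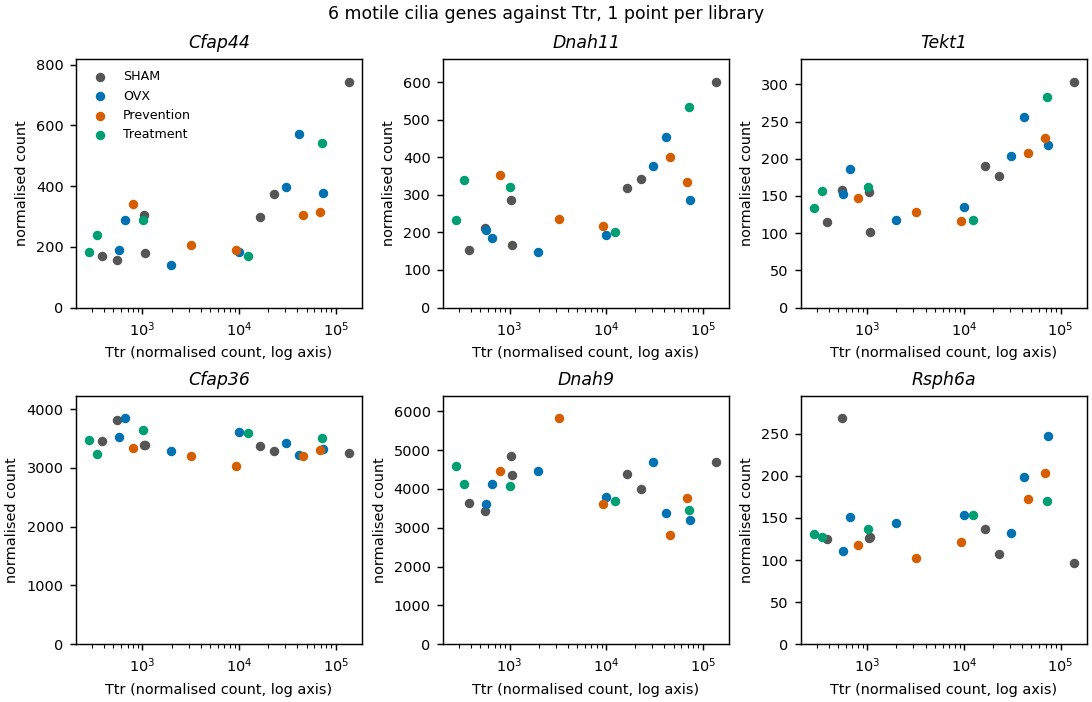
Normalised counts of 6 genes (y axes from 0) against Ttr (log axis), 1 point per library coloured by group. Cfap44, Dnah11 and Tekt1 are highest in the libraries to the right and scatter among those to the left, Cfap36 stays between 3032 and 3846, Dnah9 has no called slope on Ttr, and Rsph6a is highest, at 269, in SHAM 5, a library low in Ttr.

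Correlations of log2 values across all 24 libraries were computed for each of 16119 genes with 100000 permutations, two-sided and adjusted over all of them. They passed for 12 of the 47 genes by Pearson's r, against 5.05% of all genes. By Spearman's rho 10 of the 47 passed, a count for which no share of all genes is given here. Cfap44 had r = 0.66 (permutation p = 0.0006, adjusted p = 0.0205) and rho = 0.66 (permutation p = 0.00062, adjusted p = 0.026). Its r was 0.58 without SHAM 7 and Treatment 2, the libraries farthest from the median of Ttr, and 0.74 and 0.40 within the 17 and the 7 libraries split by LOC257642. Within the 12 libraries with more Ttr it was 0.84, and within the 12 with less it was 0.014, a difference that was not tested. Cfap126, also called Flattop, which positions basal bodies, had the highest r, 0.75 (permutation p = 1e-05, the smallest that these permutations can give, adjusted p = 0.0011). Its rho was 0.70 (permutation p = 0.00016, adjusted p = 0.011), its r 0.73 without the same 2 libraries, 0.93 within the 12 libraries with more Ttr and -0.077 within the 12 with less.

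Radial spoke genes were mixed. Rsph1 and Rsph9, both of the spoke head, rose with Ttr, and Cfap206, at the spoke base, rose with Tmem212, whereas Rsph3, Rsph6a and Rsph10b passed on neither. Rsph1 ran from 54.6 over 120 to 203 in SHAM and from 79.2 over 116 to 162 in OVX, and measured 142, 75.3, 67.8, 113 and 93.8 in Prevention and 124, 91.0, 119, 199 and 133 in Treatment. The groups overlapped, and its Ttr slope was 0.121 (SE 0.0225, adjusted p = 0.00136). Rsph9 rose by 0.0662 per doubling of Ttr (SE 0.0129, adjusted p = 0.00219). Rsph10b, a spoke protein, measured 862 to 2248 in SHAM (median 1425), 1010.4 to 1567 in OVX (median 1321), 1505, 1164, 1396, 959 and 1233 in Prevention and 1200, 1239, 1156, 1598 and 1055 in Treatment. It was highest in SHAM 7 and lowest in SHAM 2, and did not pass on Ttr (slope 0.0458, adjusted p = 0.126).

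Rsph6a, a spoke head paralogue known mainly from sperm, rose with Tcf7l2, and its slope on Ttr did not pass (0.0294, adjusted p = 0.538). It measured 137, 125, 107, 126, 269, 127 and 96.6 in SHAM, 144, 247, 151, 154, 111, 198 and 132 in OVX, 203, 121, 102, 172 and 118 in Prevention, and 127, 131, 153, 170.2 and 137 in Treatment. The highest value of each group came from a library rich in Tcf7l2 (SHAM 5, OVX 2, Prevention 1 and Treatment 6), and SHAM 7, among the top 3 libraries for 34 of the 47 genes, was the lowest. On Tcf7l2, a marker taken after values had been seen, its slope was 0.30 (SE 0.0378, adjusted p = 9.11e-06). Only 3 of the 47 genes passed on Tcf7l2, where 12.9% of all genes did (6.11% higher, 6.82% lower): Rsph6a and Cfap53 rose (Cfap53 by 0.097, adjusted p = 0.0203) and Dnah9 fell by 0.14 (adjusted p = 0.00465). None of the 3 passed without the 5 libraries rich in Tcf7l2, where 8 of all genes did. The slope of Rsph6a was then 0.27 (adjusted p = 0.341). The call of Cfap53 also ended without Treatment 6 (adjusted p = 0.0626) or SHAM 5 (0.0682). Leaving out SHAM 5, Prevention 2 or SHAM 7 raised the number of the 47 passing on Tcf7l2 to 7, 6 and 5. Of all genes, 2123, 2100 and 2227 then passed.

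The 5 tektins, filament proteins inside the doublets, included 3 genes that passed on a marker and the gene with the lowest slopes of the 47. Tekt1 ran from 102 over 159 to 304 in SHAM and from 118 over 186 to 256 in OVX, and measured 228, 117, 128, 207 and 147 in Prevention and 156, 134, 118, 283 and 162 in Treatment. Its highest library had the most Ttr of its group in SHAM, Prevention and Treatment and the second most in OVX, and the groups overlapped. It rose with Ttr (slope 0.103, SE 0.0226, adjusted p = 0.0064) and with Tmem212 (slope 0.64, adjusted p = 0.0316). The Tmem212 call ended when any of Prevention 2, Treatment 6, OVX 1, 4 or 6, or SHAM 2 or 7 was left out (adjusted p from 0.0539 to 0.151), or with Ccdc153 as the marker (0.069). Tekt2 and Tekt3 rose with Tmem212. Tekt5, a tektin of the sperm flagellum, measured 62.7 to 127 in SHAM (median 83.7), 73.8 to 134 in OVX (median 98.4), 61.5, 87.8, 76.0, 75.6 and 94.7 in Prevention and 92.3, 109.7, 134, 80.1 and 60.1 in Treatment, and its slope on Ttr was -0.0397 (SE 0.0232, adjusted p = 0.321).

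Of 7 other proteins inside the doublet microtubules, Cfap45, Cfap52, Cfap77 and Cfap126 rose with Ttr, and Cfap45 and Cfap77 with Tmem212 as well. Cfap161, Cfap53 and Cfap20, a protein of the inner junction between doublet tubules, passed on neither. Of 7 central apparatus genes, Cfap46, Cfap65 and Cfap69 rose with Ttr, and Cfap46, Cfap65, Cfap74 and Cfap221 with Tmem212. Cfap221 had the steepest Tmem212 slope of the 47 (1.48, SE 0.18, adjusted p = 8.61e-05) on low counts, from 6.26 in Treatment 5 to 44.7 in OVX 6. Cfap69 rose least of the genes that passed on Ttr (slope 0.0283), and Cfap54 and Cfap70 passed on neither. Of the 5 genes for which no axonemal position was listed, Cfap99 rose with Tmem212, and Cfap36, Cfap58, Cfap97 and Cfap157 passed on neither.

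Cfap36 and Cfap20 varied little between libraries. Cfap36 ran from 3258 over 3390.3 to 3808 in SHAM and from 3216 over 3424 to 3846 in OVX, and measured 3299, 3032, 3197, 3211 and 3336 in Prevention and 3235, 3479, 3596, 3516 and 3645 in Treatment. Cfap20 ran from 1306 over 1356 to 1392 in SHAM and from 1276 over 1370 to 1550 in OVX, and measured 1269, 1367, 1234, 1156 and 1266 in Prevention and 1206, 1394, 1330, 1294 and 1368 in Treatment. SHAM 7 held the lowest Cfap36 value of its group and the highest Cfap20 value, 1392 against 1376 in the next SHAM library. Their slopes on Ttr were -0.00858 (SE 0.00541, adjusted p = 0.362) and -0.00747 (SE 0.00611, adjusted p = 0.495).

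Removal of the ovaries and E2 were compared over the groups in 1 limma fit of all 24 libraries, which asked whether either altered these genes. None of the 47 genes passed in any of the 6 comparisons. Among all genes, 0% passed for OVX minus SHAM, 0.304% (49 genes) for Prevention minus OVX, 0% for Treatment minus OVX and for Treatment minus Prevention, 0.354% (57) for Prevention minus SHAM and 0.0062% (1) for Treatment minus SHAM. In that order, 0, 2, 1, 1, 2 and 0 of the 47 had an unadjusted p under 0.05, against 6.25, 18.6, 7.19, 5.38, 13.3 and 6.1% of all genes. The median SE of a change was 0.196 to 0.232 on the log2 scale for these genes. Changes well above this did not pass either, such as Dnah5 in Prevention minus OVX (0.62, SE 0.324, adjusted p = 0.313). Not passing therefore does not exclude changes of that size.

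**Figure D4:**
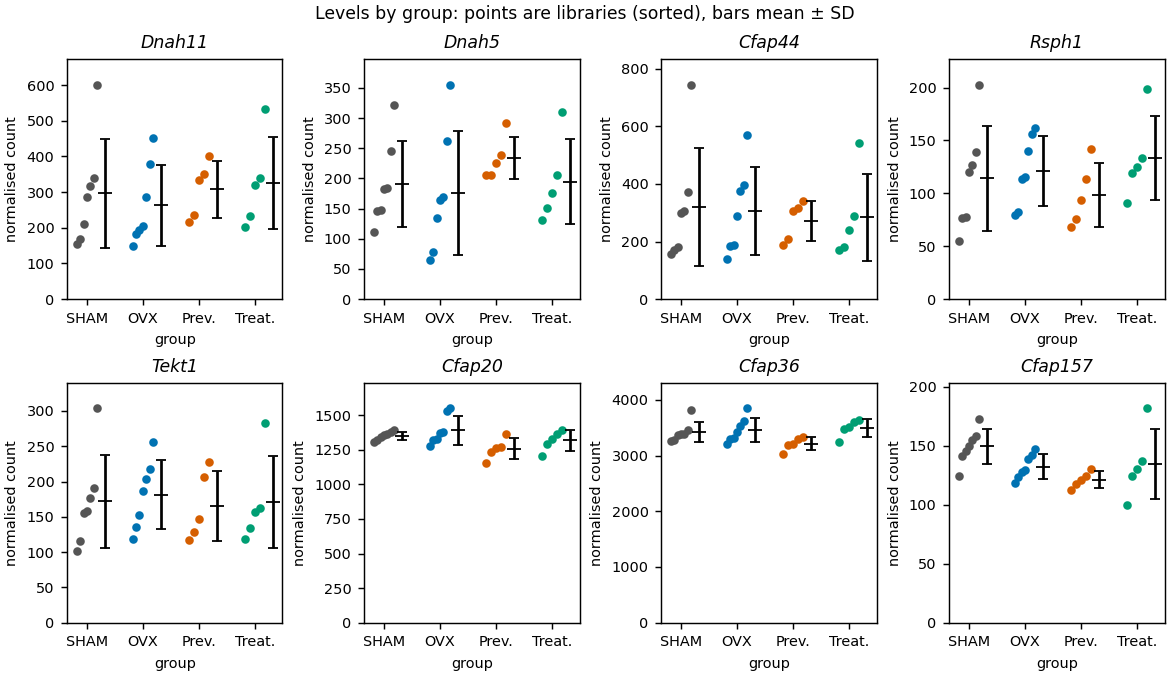
Normalised counts of 8 of the genes by group (y axes from 0), with 1 point per library sorted by value and the mean ± SD as a bar beside them. The groups overlap in every panel, and the spread within a group is wide in Dnah11, Dnah5, Cfap44, Rsph1 and Tekt1 and narrow in Cfap20 and Cfap36.

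In OVX against SHAM the median change of the 47 genes was -0.08, with 15 above 0 and 32 below, and that of all genes was 0.0043. The choroid plexus markers had a median of 0.40 (16 of 17 above 0) and the ependymal markers of -0.034 (3 of 12), with none passing. The smallest p values belonged to Cfap53, Cfap157 and Dnah17. Cfap53, a doublet protein needed for left-right asymmetry, measured 119 to 176 in SHAM (median 146) and 155 to 181 in OVX (median 169), with overlapping groups (change 0.19, SE 0.0917, adjusted p = 0.795). Cfap157, a cilia and flagella associated protein, measured 125 to 173 in SHAM (median 149.8) and 118 to 147 in OVX (median 129), again overlapping (change -0.17, SE 0.0988, adjusted p = 0.828). Dnah17 measured 91.4 to 150.4 in SHAM (median 113) and 73.7 to 134 in OVX (median 85.7; change -0.24, SE 0.164, adjusted p = 0.852).

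With E2 from the start (Prevention minus OVX) the median change was -0.053, with 21 genes above 0 and 26 below, against 0.00081 for all genes. Cfap20 had the smallest adjusted p of the 47 in any comparison: 1258 ± 76.0 (SD, n = 5) in Prevention against 1392 ± 106 (n = 7) in OVX, a change of -0.14 (SE 0.0502, adjusted p = 0.13 in limma's test) with overlapping libraries. Cfap36 was 3215 ± 118 against 3463 ± 218 (change -0.11, SE 0.0454, limma adjusted p = 0.211). With a term for the LOC257642 split its change was -0.00989. Rsph9 measured 348, 290.5, 279, 404 and 256 in Prevention and 276 to 538 in OVX (median 378; change -0.30, SE 0.151, adjusted p = 0.288). Both marker sets had medians of the opposite sign in this comparison, 0.47 for choroid plexus (15 of 17 above 0) and 0.095 for ependyma (8 of 12), and none of their genes passed.

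With E2 after 3 weeks of vehicle (Treatment minus OVX) the median change was 0.072, with 33 genes above 0 and 14 below, against -0.0016 for all genes. The choroid plexus markers had a median of -0.71, all 17 below 0 and none passing, and the 12 ependymal markers tested a median of 0.07, with 9 above 0. Cfap97 measured 388, 407, 372, 407 and 424 in Treatment and 329 to 418 in OVX (median 361; change 0.14, SE 0.0674, adjusted p = 0.69). Cfap54, of the central apparatus, measured 152, 156, 147, 198 and 177 in Treatment and 114 to 172 in OVX (median 149; change 0.22, SE 0.122, adjusted p = 0.712). The groups overlapped for both genes.

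Between the E2 schedules (Treatment minus Prevention) the median change was 0.067, with 37 genes above 0 and 10 below, against -0.0023 for all genes. Cfap36 was higher by 0.12 (SE 0.049, adjusted p = 0.817) and Rsph1 by 0.44 (SE 0.291, adjusted p = 0.952), neither beyond the test. The choroid plexus markers had a median of -1.35 here (1 of 17 above 0) and the ependymal markers of 0.032 (9 of 12), and how far either marker set contributes to the members' median was not tested. Against SHAM, Prevention had a median of -0.069 (13 genes above 0, 34 below) and Treatment of 0.012 (28 above, 19 below), where all genes had 0.0029 and 0.0037. Choroid plexus markers had medians of 0.92 (16 of 17 above 0) and -0.35 (3 of 17) in these comparisons, ependymal markers of 0.0093 (6 of 12) and 0.045 (8 of 12), and thalamic markers of 0.52 (10 of 12) and 0.07 (7 of 12), none passing. Cfap157 was 121 ± 6.89 in Prevention (n = 5) against 149.6 ± 14.8 in SHAM (n = 7), with only SHAM 2 inside the Prevention range (change -0.30, SE 0.108, limma adjusted p = 0.227). Its Treatment libraries measured 182, 137, 124, 130 and 99.9 and spanned the whole range of SHAM (change -0.17, adjusted p = 0.853). Comparisons that share OVX, SHAM or an E2 group are not independent of each other.

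**Figure D5:**
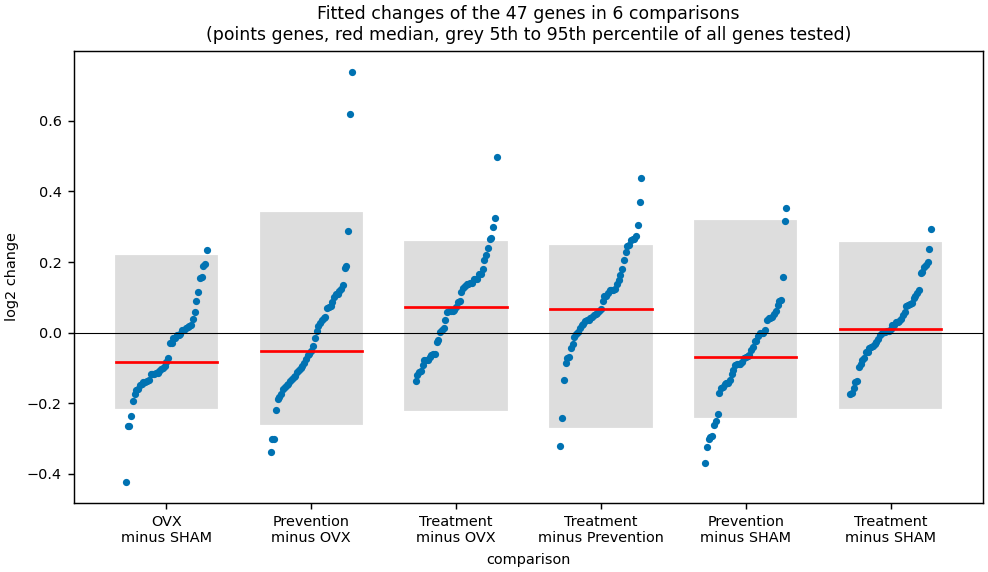
Fitted log2 change of the 47 genes, sorted, in each of 6 comparisons (points), with their median (red line) and the range from the 5th to the 95th percentile of all 16119 genes (grey box). Medians lie between -0.08 and 0.07, and none of the points passed the test.

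Other ciliary genes were followed by lists of known function. Of all genes, 6.66% passed on Ttr and 4.7% rose with it, and 0.831% passed on Tmem212 and 0.782% rose. Of 60 tested genes of other axonemal parts, 23 rose with Ttr and 20 with Tmem212. Efhb and Spag1 were among the genes with the smallest p on Ttr (adjusted p = 0.000331 and 0.000928). Spag1 is also on the list of dynein arm assembly factors below and is counted in both lists. The adenylate kinases Ak7 and Ak9 and the central apparatus gene Spag17 had the smallest p on Tmem212, with slopes of 0.95, 0.85 and 0.86, and Efhb had a steeper slope there, 1.58 (adjusted p = 0.0112). Of 16 dynein arm assembly factors, cytoplasmic proteins that build the arms before transport, 5 rose with Ttr (among them Spag1, Dnaaf3 and Ttc12) and 1, Daw1, with Tmem212.

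Regulators of multiciliation and transport genes were counted in the same way, beside 6.66% of all genes passing on Ttr and 0.831% on Tmem212. Of 16 genes of the multiciliation programme, Gmnc, the switch that commits a cell to many cilia, rose with Ttr (slope 0.0786, adjusted p = 0.0163), and Myb and Ankrd66 rose with Tmem212. Ccno and Foxn4 of that programme were at 0 in some libraries of each group. Of 27 genes of intraflagellar transport, which primary cilia of neurons use as well, none rose with either marker, and Kif3b and Kifap3, subunits of the kinesin-2 motor that also works in axons, fell with Ttr by 0.0246 and 0.022 per doubling. No gene of these lists passed in any of the 6 comparisons.

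The marker lists are read beside the same 6.66 and 0.831% of all genes. Of the choroid plexus genes other than Ttr, 15 of 16 rose with Ttr. None of 17 passed on Tmem212, where 16 slopes were above 0 with a median of 1.5, and with Ttr in the fit 1 of 16 rose with Tmem212. Of the ependymal markers, 4 of 12 rose with Ttr and 5 of 11 with Tmem212. Meningeal fibroblast genes also moved with Ttr: 7 of 9 rose, and none did with Tmem212. Of 12 thalamic markers 1 rose with Ttr, and of 8 genes of hippocampal neurons none rose and 1 fell. Their part in the slopes of the 47 genes was not tested. With Tcf7l2 in the fit 14 of the 47 passed on Ttr and 22 on Tmem212, beside 572 and 180 of all genes. Without the 5 libraries rich in Tcf7l2 the counts were 0 and 16, beside 313 and 97 of all genes.

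The table also held 15 features under older names whose RefSeq symbol now fits the same pattern, 13 of them with enough counts to test. Wdr63 (now Dnai3) rose with Ttr (slope 0.124, adjusted p = 0.0121) and with Tmem212 (slope 0.91, adjusted p = 0.00381). Wdr78 (Dnai4) rose with Ttr, and Casc1 (Dnai7) and Fam183b (Cfap144), which is also on the list of ependymal markers, rose with Tmem212. The other 9 passed on neither.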

How the data were processed

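The deposited file holds normalised counts per gene and library, a signal in arbitrary units made by the authors. kallisto 0.43 and DESeq2 are named in the submitters' processing notes; a genome build or annotation is not given in the sources used here, nor is any batch. Per the labels' protocols, total RNA came from frozen tissue by TRIzol and column purification. Read counts are not given, so no counting interval was computed.

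Values were analysed as log2(normalised count + 1) with limma 3.58.1 in R 4.3.3: a mean per group over 24 libraries, empirical Bayes with a mean-variance trend, and Benjamini-Hochberg adjustment over the 16119 genes with a mean of at least 10. Fold changes on this scale understate those of low genes. Marker slopes added log2 of the marker to this fit. The fits were tested on simulated data. Permutations used Python 3.11.15 and scipy 1.17.1.

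The members and lists were chosen with earlier results of these data known. Genes named with values were the 3 smallest p per comparison and, per symbol family, the highest mean and the steepest and flattest Ttr slope. Dnah3, Dnah5, Dnah6, Dnah8, Cfap69, Cfap126, Cfap221, Ak7, Ak9, Spag17 and the older-named features were added after their values were seen. Correlation p-values were adjusted over all genes rather than the members. Slopes on Tmem212 that did not pass were not followed through the alternatives. One promoter sequence and one gene of the lists are not reported here. Alternatives are in the closing section.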

Additional observations from a re-analysis of the deposited data

Results flagged for a closer look

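Values within a group were tested for a library far from the rest by Dixon's criterion (the gap to the nearest library as a share of the group's range). This covered the genes chosen by smallest p or by symbol family, with Ttr and Tmem212. Among 80 groups of values 7 results stood out, where chance gives about 1 in 20 if values are normally distributed. Unlogged normalised counts were used, and their distribution was not checked. SHAM 7 was far above the other SHAM libraries in Ttr (136652 normalised counts), Cfap44 (744) and Dnah11 (601). Treatment 6 was far above the other Treatment libraries in Ttr (71606) and Tekt1 (283). SHAM 5, the library with the most Tcf7l2, was far above the other SHAM libraries in Rsph6a (269) and Cfap36 (3808). Without Treatment 6 the slope of Dnai2 on Ttr no longer passed (0.0651, adjusted p = 0.0776), and without SHAM 7 12 of the 47 genes rather than 17 rose with Ttr.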

How the results depend on the processing

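In every alternative run, 0 of the 47 genes passed in each of the 6 comparisons. Their median change moved by less than the SD between libraries of the members' median (0.31), a yardstick larger than each of these medians. The sign of these small medians varied. In alternatives that kept more than a left-out library apart, it ran from -0.11 to 0.21 in Prevention minus OVX and from -0.17 to 0.17 in Prevention minus SHAM. Leaving out 1 library gave 10 to 22 genes on Ttr, 16 to 23 on Tmem212, 10 to 18 and 13 to 19 for Ttr and Tmem212 in the joint fit, and 3 to 7 on Tcf7l2, with median slopes of 0.0166 to 0.177 on Tcf7l2. The lowest counts came without Treatment 6 (10 on Ttr) and Treatment 5 (10 on Ttr in the joint fit). Within the 7 libraries high in LOC257642 the counts were 0 on Ttr, Tmem212 and Tcf7l2 and 0 for both in the joint fit. Of all genes, 30, 0 and 155 passed there, and 18 and 0 in the joint fit, where fewer libraries entered. Median slopes of the 47 were 0.0103 on Ttr and 0.13 on Tmem212. Within the other 17, 8 passed on Ttr in the joint fit, beside 320 of all genes. Without the 5 libraries rich in Tcf7l2 the counts were 0 on Ttr, 6 on Ttr in the joint fit and 0 on Tcf7l2. Of all genes, 313, 289 and 8 passed in that order, and the members' median slope on Tcf7l2 was 0.40. With Ccdc153, another ependymal marker, in place of Tmem212, 14 passed, beside 67 of all genes, with a median slope of 1.01. On Tcf7l2, quantile normalisation gave 6 genes (median slope 0.023) and library weights 8 (0.10), beside 2175 and 2632 of all genes.

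Replicate numbers did not pair the libraries: over 30 pairs of the same number, deviations from the group means had a mean correlation of -0.064, 8 were over 0.1, and 3 of 24 libraries correlated best with their own number. With the replicate block 4 genes passed on Ttr, 0 on Tmem212, 11 on Tmem212 in the joint fit and 5 on Tcf7l2. Of all genes, 498, 2, 59 and 1523 then passed in that order. The cause of these moves was not tested. Among the 44 results for single genes, 5 turned sign under an alternative: Cfap157 on Ttr with quantile normalisation (-0.0071), Cfap36 in Prevention minus SHAM with a term for the LOC257642 split (0.0061) and Rsph6a on Ttr with Tcf7l2 in the fit (-0.019), none of them past the test before, and, within the 7 libraries, Rsph10b on Ttr (-0.0102, not past the test before) and Tekt1 on Tmem212 (-0.14, past it before). Foxj1 as a marker could not be run, and the widest gap of LOC257642 set apart only 2 libraries, within which nothing could be fitted. The second widest gap, the Tcf7l2 settings and the Tmem212 and Ccdc153 markers were added after the data were seen. Without read counts, depth could not be turned into an error, and precision rests on the libraries.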
